A study of Sus scrofa with 24 samples.

Results

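The comparison described here was between small for gestational age (SGA) and appropriate for gestational age (AGA) piglets that were fed the hydrolyzed fat (HF) formula, read out as messenger RNA of the hippocampus. Its members were the 6 SGA HF and 6 AGA HF piglets, chosen by their sample titles, which are 12 of the 24 piglets sequenced. The other 12 were 6 SGA and 6 AGA piglets fed the control (CON) formula, and they entered the fits as the other 2 of 4 groups. All piglets were PIC Camborough by PIC 359, were assigned to a size by birth weight, and were killed at 14 days of age. HF stands for a formula in which part of the triacylglycerol was replaced by free fatty acids and monoacylglycerol, and it does not mean a high-fat diet, since HF and CON were matched for fat. Each SGA HF piglet had a sex-matched AGA HF littermate with the same replicate number, so the piglets formed 6 pairs, from litters 1, 3 and 5 in cohort 1 and litters 7, 9 and 11 in cohort 2. RNA came from whole hippocampal tissue, so fewer cells of a type and less RNA per cell cannot be told apart.

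The hippocampus holds excitatory granule and pyramidal neurons that form memories by changing the strength of their synapses. At the receiving side of these synapses, calcium entering through glutamate receptors binds calmodulin and activates CaM kinase II, which acts on a protein scaffold that includes the SHANK proteins. Ribosomal proteins, mitochondrial enzymes and the myelin made by oligodendrocytes are all in strong demand while the brain grows after birth.

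Total counts on the listed genes were between 6224421 and 7474872 in AGA HF piglets and between 6931595 and 9284355 in SGA HF piglets. The SGA library was the deeper one in 6 of 6 pairs (two-sided exact sign-flip permutation test, p = 0.031, the smallest that 6 pairs allow), and the part of this difference in the results below was not tested. Of the defining markers of hippocampal neurons, PROX1 was between 38 and 64.3 CPM (counts scaled to a common library total), WFS1 was between 1.67 and 6.79 CPM, and ZBTB20 was between 0 and 0.165 CPM, in the 12 libraries. The library of SGA HF replicate 4 stood apart by pituitary hormone genes. It held 305 CPM of GH1 (growth hormone), against 0 to 1.91 CPM in the other 11 libraries, and 7.36 CPM of PRL (prolactin), which was at 0 in the other 11. Calls of named DEGs and medians of the main lists are therefore also given without this library.

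Of 16326 genes tested, 47 (0.288%) were differentially expressed genes (DEGs) between SGA HF and AGA HF, of which 41 (0.251%) were higher and 6 (0.0368%) were lower in SGA HF piglets. DEGs were called at an FDR-adjusted p under 0.4, the limit of the study's heat map, with edgeR's quasi-likelihood test on 4 groups, sex and 5 surrogate variables. The smallest FDR p of any gene was 0.217, so 0 genes passed an FDR p of 0.05 in this fit, while 1310 (8.02%) had an unadjusted p under 0.05. The smallest FDR p was 0.032 by edgeR with 3 surrogate variables and 2.19e-05 with DESeq2. With litter as a block in edgeR over the 12 HF piglets alone it was 0.0004. With that block over the 24 piglets it was 0.037, the value of GH1, which was high in SGA HF replicate 4 alone. Without the pair of litter 7, the smallest FDR p of this last fit was 0.152. DESeq2 called 135 genes and limma voom called 24 at the FDR p of 0.4. Most differences were small, with 38 of the 47 DEGs under 0.5 on the log2 scale and a median size of 0.35.

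The count of DEGs depended on single libraries. Without SGA HF replicate 4 it was 19 (0.117%), with 16 higher (0.0981%) and 3 lower (0.0184%), and 16 of the 47 DEGs remained. Without SGA HF replicate 5 no gene was called, with a smallest FDR p of 0.401 by edgeR and 1109 genes at an unadjusted p under 0.05, so each of the 47 calls was lost without that piglet in this fit. Without SGA HF replicate 3 the count was 811, and it was 199 without AGA HF replicate 3, 10 without AGA HF replicate 5, 84 without SGA HF replicate 1, 88 without SGA HF replicate 2 and 25 without SGA HF replicate 6. With litter as a block over the 24 piglets, 145 genes (0.888%) were called, 68 higher (0.417%) and 77 lower (0.472%). The share of calls that were higher was then 46.9%, against 87.2% without the block. Only 19 genes were called in both fits, 15 higher and 4 lower, although all 47 DEGs kept their direction. Without the pair of litter 7, the count was 26 (0.16%) in the fit without the block and 40 in the fit with it. In each cohort alone, with 3 pairs, edgeR called 0 genes, and 778 genes in cohort 1 and 973 in cohort 2 had an unadjusted p under 0.05.

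**Figure D1:**
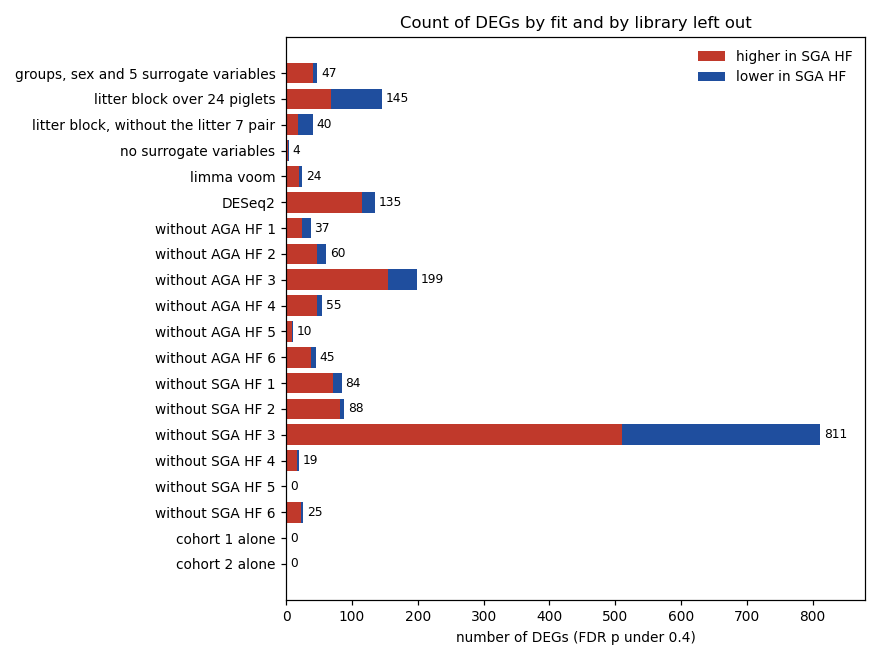
Number of DEGs (horizontal axis, FDR p under 0.4) for each fit and for each HF library left out, with red for genes higher and blue for genes lower in SGA HF piglets. The count was 47 in the fit with groups, sex and 5 surrogate variables, 145 with litter as a block, 0 without SGA HF replicate 5 and 811 without SGA HF replicate 3.

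In the direction of individual pairs, 21 of the 41 higher DEGs were above the AGA littermate in all 6 pairs and 32 in at least 5, and 4 of the 6 lower DEGs were below the littermate in all 6 pairs. For comparison, 411 of all genes tested (2.52%) were higher and 419 (2.57%) lower in all 6 pairs. Ranges of CPM did not overlap between the groups for 8 higher and 1 lower DEGs, beside 36 (0.221%) higher and 25 (0.153%) lower among all genes. These shares read the same contrast that chose the DEGs and describe them only. The higher DEGs were abundant genes with a median of 118 CPM, against 13.3 CPM over all genes tested. Their median exon length was 3379 bases, against 782 bases for the 6 lower DEGs and 2356 bases for all genes. What part length and RNA quality had in these calls was not tested.

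**Figure D2:**
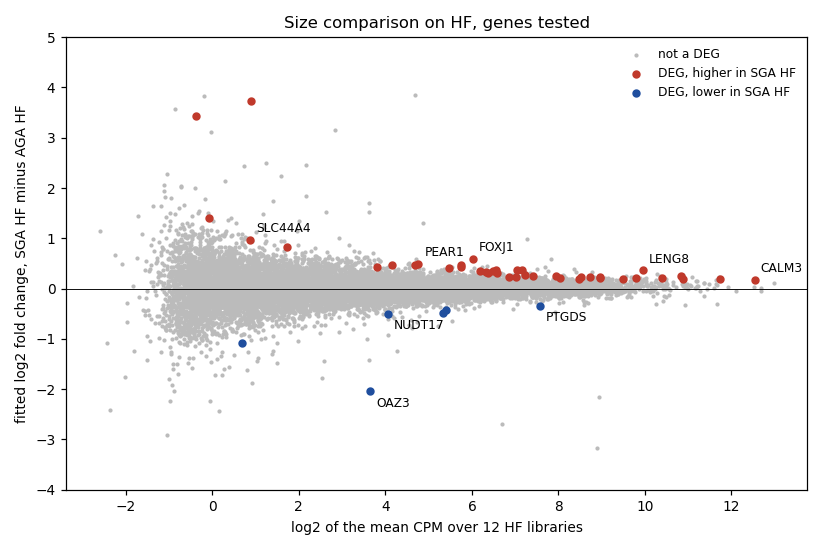
Fitted log2 fold change of SGA HF minus AGA HF against the log2 of the mean CPM over the 12 HF libraries, with 1 point for each gene, red for DEGs higher and blue for DEGs lower in SGA HF piglets. Of the 16326 genes tested, 6 lie outside the axes, 1 of them a DEG, and the DEGs of high level lie within 0.5 of 0 on the vertical axis.

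The genes of the calcium and postsynaptic pathway that rose included CALM3, CAMK2A, IQSEC2 and SIPA1L3. CAMK2A (gene 100626014, chr2:158335771-158396987 in Sscrofa10.2), the alpha subunit of CaM kinase II, was at 2743, 3185 and 3733 CPM (lowest, median and highest) in AGA HF and at 3277, 3675 and 3784 CPM in SGA HF piglets. Only AGA HF replicate 2 reached into the SGA range, and SGA was higher in 5 of 6 pairs. The log2 fold change was 0.19 ± 0.042 (SE; edgeR adjusted p = 0.271), with an FDR p of 0.613 under the litter block and 0.486 without SGA HF replicate 4. CALM3 (gene 396838, chr6:47824454-47834181), 1 of several genes that encode the same calmodulin protein, was at 4515, 5819 and 6246 CPM in AGA HF and 5887, 6063 and 7305 CPM in SGA HF piglets. Its log2 fold change was 0.17 ± 0.038 (SE; edgeR adjusted p = 0.271), SGA was higher in 4 of 6 pairs, and the FDR p was 0.681 under the block and 0.434 without SGA HF replicate 4. The log2 fold changes were 0.30 for CAMK2A and 0.31 for CALM3 in cohort 2 and 0.02 and 0.05 in cohort 1, and the difference between cohorts was not tested.

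IQSEC2 (gene 100520058, chrX:51511372-51566645), which activates Arf GTPases at the postsynaptic density, was at 283, 333 and 398 CPM in AGA HF and 373, 404 and 428 CPM in SGA HF piglets. Its log2 fold change was 0.23 ± 0.053 (SE; edgeR adjusted p = 0.308), it was higher in 6 of 6 pairs, and it was also called under the block (adjusted p = 0.37). SIPA1L3 (gene 100514291, chr6:42522564-42598357), of a family that inactivates Rap GTPases, was at 36.5, 41.6 and 61.7 CPM in AGA HF and 56.8, 63.3 and 70.6 CPM in SGA HF piglets. Only AGA HF replicate 3 reached into the SGA range, and the log2 fold change was 0.47 ± 0.115 (SE; edgeR adjusted p = 0.373, and 0.219 under the block). The calls of IQSEC2 and SIPA1L3 were lost without SGA HF replicate 4, at FDR p of 0.464 and 0.434. SHANK1 and PPP1R9B, also scaffold DEGs, fell outside the rule for named genes and were picked once their values had been seen. SHANK1 was at 1698 ± 112 CPM in AGA HF and 1981 ± 119 CPM in SGA HF piglets (SD, n = 6), and PPP1R9B, or spinophilin, was at 1793 ± 152 and 1977 ± 170 CPM. Neither was called under the block (adjusted p of 0.572 and 0.726) or without SGA HF replicate 4 (0.552 and 0.56).

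**Figure D3:**
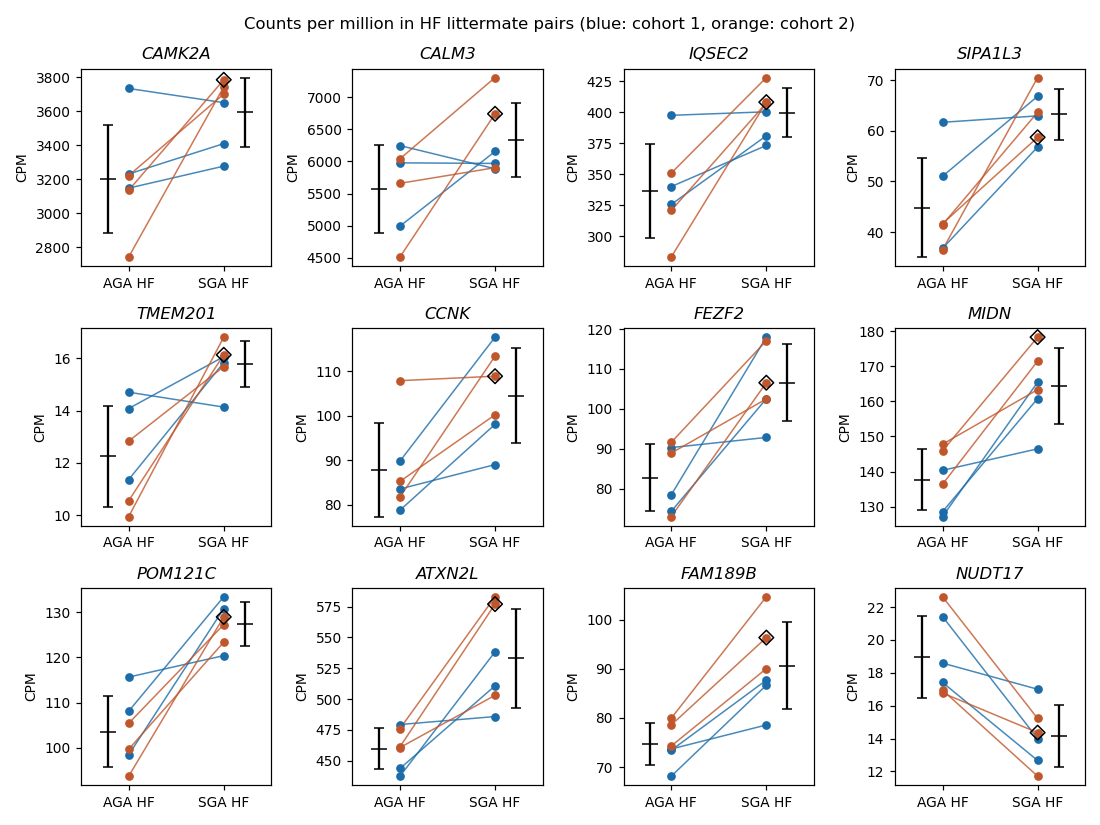
CPM of 12 DEGs in AGA HF and SGA HF piglets, with a line for each littermate pair, blue for cohort 1 and orange for cohort 2, an open diamond on SGA HF replicate 4, and black bars for mean ± SD (n = 6); the vertical axes do not start at 0. In the panels for POM121C, FEZF2 and ATXN2L no SGA HF piglet lies in the AGA HF range, while the ranges overlap for CAMK2A and CALM3.

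Across the list of calmodulin and CaM kinase genes, 2 of 16 were DEGs, both higher, where 0.251% of all genes were higher DEGs. Of the 16, 12 were above 0, beside 8039 of the 16326 genes tested. The median log2 fold change was 0.043, against -0.003 over all genes tested. Among 23 postsynaptic scaffold genes, 3 were DEGs, all higher, 5 were higher and 0 lower at an unadjusted p under 0.05, and the median was 0.041. Of 28 synaptic vesicle and release genes, 0 were DEGs by edgeR, 11 were higher and 0 were lower at an unadjusted p under 0.05, where 4.77% of all genes were higher and 3.25% lower, and DESeq2 called 3 of them higher and limma voom 0. SYN1, a vesicle phosphoprotein, had the smallest p of that list and missed the limit with a log2 fold change of 0.22 and an FDR p of 0.402 by edgeR. Sodium and calcium channel genes had 3 of 22 higher and 0 lower at an unadjusted p under 0.05 and 0 DEGs by edgeR, with a median of 0.077. Potassium channels (37 genes, 1 higher and 1 lower), AMPA and NMDA receptors (11 genes, 0 higher and 1 lower) and GABA-A receptors (13 genes, 0 higher and 2 lower) had medians of 0.015, 0.0015 and -0.047. Pair by pair, litter 7 had the highest median for each of these lists except GABA-A receptors, among them 0.55 for calmodulin and CaM kinases, 0.61 for vesicle genes and 0.65 for sodium and calcium channels. In the other 5 pairs the last 3 lists named had medians between -0.076 and 0.24. In this pair the AGA HF piglet, replicate 4, was the lowest of its group for CALM3 (4515 CPM), SYN1 (1463 CPM) and SLC17A7 (2135 CPM), while its SGA littermate was within the range of the other SGA HF piglets. In the same pair the medians were -0.31 for microglia, -0.33 for endothelium, -0.33 for myelin, -0.62 for meninges and fibroblasts and -0.65 for choroid plexus, and the part of these cell types in the synaptic values was not tested. Without SGA HF replicate 4, in the fit without the block, the medians were 0.033 for calmodulin and CaM kinases and 0.026 for the postsynaptic scaffold. They were 0.055 for vesicle genes and 0.059 for sodium and calcium channels. For potassium channels and for AMPA and NMDA receptors they turned to -0.00042 and -0.017.

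FEZF2 (gene 100518806, chr13:47998138-48002064), a transcription factor of forebrain projection neurons, was at 73, 83.7 and 91.6 CPM in AGA HF and 92.8, 104.5 and 118 CPM in SGA HF piglets, with no overlap. Its log2 fold change was 0.36 ± 0.086 (SE; edgeR adjusted p = 0.357), and the FDR p was 0.371 without SGA HF replicate 4 and 0.414 under the block. It was the only DEG among 19 markers of hippocampal excitatory neurons, where 0.288% of all genes were DEGs. Of the 19, 5 were higher and 0 lower at an unadjusted p under 0.05, beside 4.77% higher and 3.25% lower of all genes. The median of the list was 0.031 in cohort 1 and 0.14 in cohort 2. CRMP1 (gene 100520574, chr8:2412175-2478102), a cytoskeletal protein of axon guidance, was at 820 ± 123 CPM in AGA HF and 955 ± 83.6 CPM in SGA HF piglets (SD, n = 6). Its log2 fold change was 0.22 ± 0.045 (SE; edgeR adjusted p = 0.224), but SGA was higher in 4 of 6 pairs, cohort 1 gave 0.05 and cohort 2 gave 0.37, and the FDR p was 0.631 under the block and 0.304 without SGA HF replicate 4.

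POM121C (gene 100512219, chr3:10314131-10337656), a nuclear pore membrane protein with a near-identical paralog, was at 93.7, 103 and 116 CPM in AGA HF and 120, 128 and 133 CPM in SGA HF piglets. The ranges did not overlap, and the log2 fold change was 0.22 ± 0.050 (SE; edgeR adjusted p = 0.273, 0.212 under the block and 0.429 without SGA HF replicate 4). ATXN2L (gene 100515946, chr3:18691387-18704357), an RNA-binding protein of stress granules, was at 460 ± 16.8 CPM in AGA HF and 533 ± 40.2 CPM in SGA HF piglets (SD, n = 6), also without overlap. Its log2 fold change was 0.22 (edgeR adjusted p = 0.371), with 0.462 under the block and 0.527 without SGA HF replicate 4. SMN1, which assembles spliceosomal particles, CCNK, the cyclin partner of CDK12, GPS2, a subunit of a corepressor complex, and TMEM201, of the inner nuclear membrane, had log2 fold changes of 0.33, 0.32, 0.22 and 0.43. None of these 4 was called under the block, where the FDR p were 0.511, 0.445, 0.767 and 0.429, and SMN1 alone was called without SGA HF replicate 4 (0.375). Of 34 splicing regulators, 1 (LENG8) was a DEG, where 0.288% of all genes were DEGs, and the median was 0.019. In that list 2 were higher and 0 lower at an unadjusted p under 0.05, beside 4.77% higher and 3.25% lower of all genes.

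LENG8 (gene 106504183, chr6:53412023-53422877) had the smallest p of the comparison, with 638, 857 and 1103 CPM in AGA HF and 1026, 1079 and 1228 CPM in SGA HF piglets. Of the DEGs named by the rule, LENG8, FAM189B, MIDN and COTL1 were called without the block, with the block and without SGA HF replicate 4. With the block over the 12 HF piglets alone LENG8, FAM189B and COTL1 were called and MIDN was not (edgeR adjusted p = 0.451). FEZF2 (0.339) and POM121C (0.358) were also called in that fit. The calls of IQSEC2 (0.506), PTGDS (0.506) and NUDT17 (0.441) were lost there. FAM189B was at 74.7 ± 4.2 CPM in AGA HF and 90.7 ± 8.94 CPM in SGA HF piglets, and MIDN, a nuclear protein that directs others to the proteasome, was at 138 ± 8.64 and 164 ± 10.8 CPM (SD, n = 6 each). Both were higher in 6 of 6 pairs, and their log2 fold changes were 0.22 and 0.25 in cohort 1 and 0.32 and 0.25 in cohort 2. COTL1, an actin-binding protein, had a log2 fold change of 0.43 on HF and was the 1 DEG of this comparison that was also a DEG on CON, at 0.37. PEAR1, a receptor of platelets and endothelium, had a log2 fold change of 0.49, which was 0.64 in cohort 1 and 0.00049 in cohort 2, and KCTD13, an adaptor of cullin 3, had 0.21. Under the block the FDR p of PEAR1 was 0.631 and that of KCTD13 was 0.714, and without SGA HF replicate 4 they were 0.28 and 0.463.

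Of the 6 lower DEGs, 3 had a symbol. PTGDS (gene 397456, on an unplaced sequence), which makes prostaglandin D2 and is expressed by meninges, choroid plexus and oligodendrocytes, was at 170, 195 and 289 CPM in AGA HF and 148, 166 and 186 CPM in SGA HF piglets. It was lower in 6 of 6 pairs, and the log2 fold change was -0.34 ± 0.080 (SE; edgeR adjusted p = 0.362, 0.37 under the block and 0.464 without SGA HF replicate 4). The change was -0.10 in cohort 1 and -0.60 in cohort 2. Over the lists of cells that express it, summed levels in the 2 groups were 288 to 536 CPM in AGA HF and 297 to 515 CPM in SGA HF piglets for meninges and fibroblasts, and 241 to 451 CPM and 219 to 376 CPM for choroid plexus, with a lower sum in SGA in 4 of 6 and 5 of 6 pairs. The summed myelin level was also lower in SGA in 5 of 6 pairs. ENPP2, which is on both the choroid plexus and the myelin list, was at 195 to 369 CPM in AGA HF and 173 to 311 CPM in SGA HF piglets. It made up most of the choroid plexus sum. TTR, the defining marker of choroid plexus, was at 1.65 to 24.6 CPM and 5.75 to 17.2 CPM. By the median over their genes, the meninges and choroid plexus lists were each higher in SGA in 3 of 6 pairs. The part of these cells in the PTGDS result was not tested. NUDT17, a nudix hydrolase, was at 19 ± 2.49 CPM in AGA HF and 14.2 ± 1.87 CPM in SGA HF piglets (SD, n = 6). It was lower in 6 of 6 pairs, with a log2 fold change of -0.50, an edgeR FDR p of 0.373, 0.303 under the block and 0.486 without SGA HF replicate 4. OAZ3, an ornithine decarboxylase antizyme, was spread from 5 to 34.4 CPM in AGA HF and from 2.58 to 19.5 CPM in SGA HF piglets, and 2 of 6 pairs went against its log2 fold change of -2.04 (edgeR adjusted p = 0.382, 0.445 under the block and 0.495 without SGA HF replicate 4). The gene with identifier 100627821, for which no symbol was found, was the only lower DEG without overlap, at 41.3 to 61.5 CPM in AGA HF and 26.9 to 35.1 CPM in SGA HF piglets.

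The other DEGs were 13 higher genes with a symbol, among them SHANK1 and PPP1R9B, and 8 higher and 3 lower genes with a placeholder name or none. The largest fitted values belonged to sparse genes. The gene with identifier 100737314 had a fitted log2 fold change of 12.8 but was at 0 in all libraries of the 2 groups except SGA HF replicate 5, where it was at 1.05 CPM. The gene with identifier 100620772 had a fitted value of 3.72 although its mean was 2.01 CPM in AGA HF and 1.72 CPM in SGA HF piglets, so its sign went against the means.

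The number of cytosolic ribosomal protein genes called by edgeR depended on the block. Without it, 0 of 73 were DEGs by edgeR, although 21 were lower and 1 was higher at an unadjusted p under 0.05 (3.25% and 4.77% of all genes). The median log2 fold change of these genes was -0.092 on HF and -0.13 on CON. DESeq2 called 4 of them lower (RPS19, RPS23, RPL24 and RPLP0) and limma voom 0. With litter as a block, 10 of the 73 fell and 0 rose, beside 0.472% lower and 0.417% higher of all genes. The median was then -0.18, and 2 of 73 were above 0, beside 8191 of the 16326 genes tested. The 10 were RPL36A, RPS23, RPS19, RPL24, RPL31, RPLP0, RPL27A, RPLP1, RPL39 and RPL17, and genes of this family have many near-identical copies, which makes their counts less certain. RPS23, a protein of the small subunit, was at 107, 149 and 183 CPM in AGA HF and 104, 111 and 123 CPM in SGA HF piglets, and was lower in 6 of 6 pairs (blocked log2 fold change -0.38, edgeR adjusted p = 0.153). RPLP0, of the ribosomal stalk, was at 349, 420 and 572 CPM in AGA HF and 283, 361 and 409 CPM in SGA HF piglets (blocked log2 fold change -0.29, edgeR adjusted p = 0.282). With the block over the 12 HF piglets alone, RPL36A and RPS23 were still called, and the other 8 were not (RPLP0 at an adjusted p of 0.425). The median of the list was -0.10 without SGA HF replicate 4. The summed level of the list was lower in SGA in 5 of 6 pairs, and by the median over its genes the pair of litter 5 went the other way. Genes called lower under the block had a median exon length of 1599 bases and genes called higher 3161 bases. The libraries were made from poly(A)-selected RNA, and the paper gives RNA quality only as an average, which it ascribes to unspliced RNA. The part of length and of RNA quality in this result was not tested.

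Lists of mitochondrial genes had medians of the same sign. Among 64 mitochondrial ribosomal protein genes the median was -0.065, and 6 were lower and 0 higher at an unadjusted p under 0.05, beside 3.25% lower and 4.77% higher of all genes. For 37 genes of respiratory complex I the median was -0.050, with 3 lower and 0 higher, and for 25 genes of complexes II to V it was -0.10, with 4 lower and 0 higher. None of these was a DEG by edgeR without the block. With it MRPS22 and ATP5J2 were called lower, 1 of 64 and 1 of 25 genes, where 0.472% of all genes were. Without SGA HF replicate 4 the medians were -0.067, -0.056 and -0.11.

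Myelin genes had the lowest median of the lists tested, at -0.15 on HF and -0.21 on CON. Of 22 myelin genes 0 were DEGs by edgeR and 2, MAL and CNP, were lower at an unadjusted p under 0.05 (3.25% of all genes). Under the block CNP and ENPP2 were called lower, where 0.472% of all genes were. In that fit 0 of 22 had a fitted value above 0, beside 8191 of the 16326 genes tested. CNP, an enzyme of the myelin sheath, was at 1637, 2153 and 2847 CPM in AGA HF and 1237, 1658 and 2357 CPM in SGA HF piglets, and was lower in 6 of 6 pairs (blocked log2 fold change -0.37, edgeR adjusted p = 0.21). The summed myelin level was 16188 to 29271 CPM in AGA HF and 13585 to 26696 CPM in SGA HF piglets, so that the groups overlapped widely while SGA was lower in 5 of 6 pairs. The median of the list was -0.16 without SGA HF replicate 4. Astrocyte genes (17, median 0.039) and microglial genes (20, median -0.029, and 0.0041 without SGA HF replicate 4) had 0 DEGs by edgeR and 0 genes at an unadjusted p under 0.05 in either direction. DESeq2 and limma voom also called 0 genes in the channel, receptor, mitochondrial, respiratory, myelin, astrocyte and microglia lists.

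**Figure D4:**
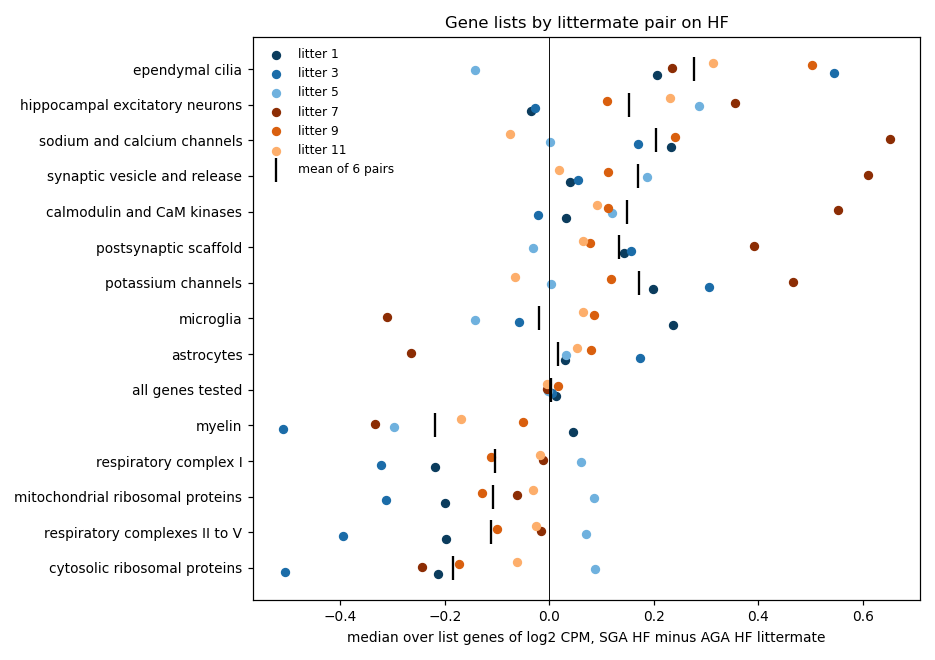
Median over the genes of each list of the log2 CPM difference between an SGA HF piglet and its AGA HF littermate, with 1 point for each litter, blue shades for cohort 1, orange shades for cohort 2 and a black mark for the mean of 6 pairs. The vesicle, scaffold, CaM kinase and channel lists lie mostly above 0 with litter 7 highest, ribosomal and respiratory lists lie below 0 except for litter 5, and the median of all genes tested lies within 0.016 of 0 in each pair.

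FOXJ1, the transcription factor of motile cilia and a DEG outside the rule for named genes, was followed up with a list of ependymal cilia genes written after its values were seen. FOXJ1 was at 52.4 ± 17.7 CPM in AGA HF and 77.7 ± 16.3 CPM in SGA HF piglets (SD, n = 6), with a log2 fold change of 0.59 (edgeR adjusted p = 0.382, 0.319 under the block and 0.502 without SGA HF replicate 4). FOXJ1 is on that list and was its only DEG. Of the other 21 listed genes tested, 4 were higher and 1 was lower at an unadjusted p under 0.05, beside 4.77% higher and 3.25% lower of all genes. The median over the list was 0.26, which describes the list and is no test of it.

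The lists on diet and growth gave few calls. For fatty acid synthesis and elongation (20 genes), cholesterol synthesis (20 genes) and PPAR targets and fatty acid oxidation (31 genes) the medians were 0.039, -0.022 and 0.0015, with 0 DEGs each by edgeR. At an unadjusted p under 0.05 these lists held 2 higher and 0 lower, 0 higher and 1 lower, and 2 higher and 1 lower genes, beside 4.77% higher and 3.25% lower of all genes. Insulin and IGF signalling (17 genes) held 0 higher and 2 lower, and mTOR regulators (17 genes) 1 higher and 1 lower, again with 0 DEGs by edgeR. DESeq2 called PPARD alone in these 5 lists, as higher, and limma voom called 0. Of the immune lists, MHC class I presentation (12 genes) held 1 higher and 1 lower gene at an unadjusted p under 0.05, and MHC class II (8 genes), interferon stimulated (28 genes) and complement genes (17 genes) held 0, with 0 DEGs in these 4 lists by edgeR without the block, DESeq2 and limma voom. With the block, SLA-8 of the MHC class I list was called lower (edgeR adjusted p = 0.328), where 0.472% of all genes were.

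The same size comparison on CON gave 21 DEGs (0.129%), 9 higher (0.0551%) and 12 lower (0.0735%). Of the 47 DEGs on HF, 44 had the same sign on CON, against 58.7% of all genes tested, and 19 did so with an unadjusted p under 0.05 on CON. The median log2 fold change of the 41 higher DEGs was 0.33 on HF and 0.10 on CON, and that of the 6 lower DEGs was -0.49 on HF and -0.27 on CON. These genes were chosen by their values on HF, so a larger size on HF, found for 46 of 47, was partly set by the choice. For the interaction of size and diet, 8 genes (0.049%) passed an FDR p of 0.4 among all genes, and 0 of the 47 DEGs did by edgeR, with a smallest FDR p of 0.485 for ABCB9. An unadjusted interaction p under 0.05 was found for 18 of the 47, beside 4.01% of all genes, but the choice by size on HF raises this share too, since the interaction contains the HF difference. ABCB9, a lysosomal peptide transporter outside the rule for named genes, was at 63.9 ± 7.98 CPM in AGA HF and 83 ± 4.47 CPM in SGA HF piglets, and at 73.4 ± 12.7 and 74.3 ± 10.8 CPM on CON (SD, n = 6 each).

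**Figure D5:**
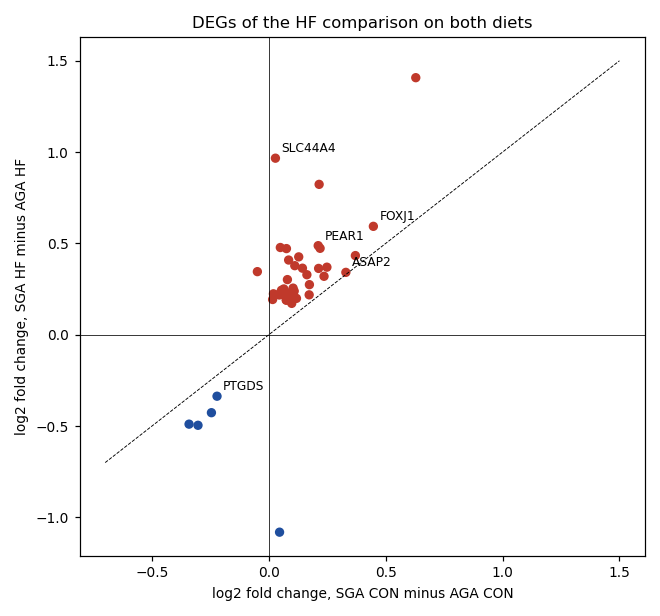
Log2 fold change between SGA and AGA piglets on HF (vertical axis) against that on CON (horizontal axis) for 43 of the 47 DEGs, red for higher and blue for lower on HF, with a dashed line of equal change; 4 DEGs of larger fitted size are outside the axes. Most points lie on the same side of 0 on both diets and farther from 0 on HF.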

How the data were processed

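RNA from the hippocampus of 24 piglets was sequenced as single-end stranded libraries. Per the submitters' processing notes, the authors used Trimmomatic 0.33, STAR 2.5.2a on Sscrofa10.2 and featureCounts of Subread 1.5.0. They deposited whole-number read counts for 38882 genes, without normalization, and 1 entry without an identifier (mitochondrial rRNA and tRNA, 0.613 to 1.11% of HF libraries), which was left out. Symbols came from a Sscrofa11.1 name table (15993 genes).

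Genes reaching 1 CPM in 3 or more libraries were kept and scaled by TMM. The fit used edgeR 4.0.16 in R 4.3.3, with 5 surrogate variables from sva 3.50.0. FDR p covered 7 contrasts together. CPM are on TMM-scaled library sizes and fold changes are adjusted for surrogate variables, so the 2 can differ. The method was tested on simulated data that held no litter, cohort, sex or hidden differences. That test therefore cannot decide between surrogate variables and the litter block. With 3 counts as a floor, HF libraries resolved 0.323 to 0.482 CPM, for counting error only.

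The labels name same-numbered piglets of a diet as littermates. Deviations from group means correlated in each pair (r from 0.109 to 0.321, mean 0.177), and between other litters r was -0.233 to 0.184 (mean -0.036). Deviations within a group sum to 0, so the mean between other litters follows from that of the pairs and is no separate comparison. Littermates also share a cohort, so these values do not separate litter from cohort. In litter 5 the littermate ranked 2 among 6.

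Named genes were the 20 higher and 10 lower DEGs with a symbol and the smallest p, up to 2 members of each list with an unadjusted p under 0.05, the pituitary hormones, and up to 3 DEGs lost without SGA HF replicate 4. Members and lists were chosen with earlier results of these data known. A few genes that this rule names are not reported here.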

Additional observations from a re-analysis of the deposited data

Results flagged for a closer look

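Among 164 groups of 6 HF piglets examined for the named genes, 14 held 1 piglet farther from the others than Dixon's critical value for 6 samples allows. Chance gives about 1 in 20 groups. The pituitary hormone genes were examined because SGA HF replicate 4 was known to hold such reads, and GH1, PRL, CGA and LHB are among the 14. The count of 14 therefore cannot be read as an excess over chance. In SGA HF replicate 4 the pituitary hormone genes GH1 (305 CPM), PRL (7.36 CPM), CGA (7.12 CPM) and LHB (15.1 CPM) were far above the other SGA HF piglets, while FSHB and TSHB were at 0 in the 12 HF libraries. GH1 had a fitted log2 fold change of 3.84 without the litter block (edgeR adjusted p = 0.645) and 8.98 with it (edgeR adjusted p = 0.0365). In SGA HF replicate 1, OAZ3 (19.5 CPM), GABRG1 (2.72 CPM) and PIK3R1 (2.45 CPM) stood above the others. In SGA HF replicate 3, ATP5A1 stood below the others at 373 CPM and ABCB1 above them at 23.3 CPM. COTL1 was at 77.7 CPM in SGA HF replicate 5, and PTPRR at 16.4 CPM in SGA HF replicate 6, both above their groups. Among AGA HF piglets, PTPN23 was at 61.0 CPM in replicate 4, PRKCD at 64.1 CPM in replicate 6 and TAPBP at 130.4 CPM in replicate 2, each above the others.

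PLIN4, a protein of lipid droplets, differed by size in opposite directions on the 2 diets and was flagged for that difference. Its counts were only 4 to 11 reads in AGA HF and 9 to 22 reads in SGA HF libraries, so its values are limited by depth. It was at 0.97 ± 0.36 CPM in AGA HF and 1.78 ± 0.552 CPM in SGA HF piglets, and at 2.14 ± 0.57 and 1.22 ± 0.344 CPM on CON (SD, n = 6 each), and SGA was higher in 6 of 6 HF pairs and 0 of 6 CON pairs. The difference of the size effects was 1.56 on the log2 scale (edgeR interaction adjusted p = 0.371).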

How the results depend on the processing

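The count of DEGs was 47. It was 70 with DESeq2 size factors and 70 with no filter on low counts, 16 with 1 CPM in at least 6 libraries, 135 with DESeq2, 24 with limma voom, 4 with no surrogate variables, 117 with 3 of them, 44 with 7, 23 with cohort and sex as terms, 25 with the 12 HF piglets alone and 235 adjusted over this contrast alone. With the replicate block it was 145 over 24 piglets and 60 over the 12 HF piglets. It was 0 in cohort 1 alone and 0 in cohort 2 alone. It was 97 with TMM factors from all listed genes, an alternative added after seeing the data, as were 7 surrogate variables and the block without litter 7 (40). Leaving out 1 library gave 0 to 811 DEGs, and leaving out both HF piglets of a litter gave 3 to 1106. The cause of these differences was not tested. The block kept 9 of the 23 DEGs named by the rule and 19 of all 47.

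Over all settings, named genes that changed direction were few. In cohort 1 alone the log2 fold change was -0.028 for CACNB1, 0.010 for IGFBP6, 0.16 for PIK3R1, -0.047 for SLC17A7, 0.063 for PRKCD, -0.0038 for CD5 and -0.20 for POMC. PRKCD was 0.047 without litter 11 and went down to -0.43 over the other left-out libraries and litters. GABRD was 0.015 without AGA HF replicate 6, 0.055 without SGA HF replicate 3, 0.017 without litter 5 and 0.15 in cohort 2 alone, and went down to -0.30 over the other left-out libraries and litters. POMC was -0.0012 without AGA HF replicate 4, -0.052 without SGA HF replicate 4, -0.054 without SGA HF replicate 5, -0.051 without litter 7, -0.0075 without litter 9 and -0.15 with the block without litter 7, and went up to 0.23 over the other left-out libraries. None of these genes was a DEG. The median log2 fold change of all genes stayed within 0.017 of 0 in each setting. With 3 counts worth 0.323 to 0.482 CPM in an HF library, values near that level, such as those of the sparse DEGs, are limited by depth.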
